A study of Mus musculus with 4 samples.

Results

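The circadian clock genes described here are Per1, Per2, Per3, Nr1d1, Nr1d2, Dbp, Tef, Ciart, Arntl and Npas2, which were taken by their gene symbol from the scanner files of 4 one-colour Agilent arrays. All 10 were present, with 23 probes among the 56605 non-control probes of each array, and all 23 were well above background on all 4 arrays. The comparison set was 20655 named genes, each represented by its brightest probe, from 42094 probes that were well above background on all 4 arrays. The mice were of the B6J strain and 3 months old, and the RNA was that of their prefrontal cortex. From postnatal day 21, at weaning, they had been fed starch or sucrose over some 70 days, and their genotype was wild-type or heterozygous for Glo1, which encodes the methylglyoxal-detoxifying enzyme glyoxalase 1. The groups were wild-type starch (the control), wild-type sucrose, Glo1 heterozygous starch and Glo1 heterozygous sucrose. The prefrontal cortex was removed directly after cervical dislocation. In each group 3 independent total RNA samples were pooled and each pool was hybridised to 1 array, so there are no replicates. The kind of Glo1 allele, the sex of the mice and the hour at which the tissue was taken are not given in the sources used here.

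The mammalian clock is a transcriptional feedback loop. A heterodimer of ARNTL (also called BMAL1) with CLOCK or with its forebrain paralogue NPAS2 binds E-box elements and activates the Period and Cryptochrome genes, whose proteins return to the nucleus and repress the heterodimer. A second loop runs through the nuclear receptors REV-ERB alpha and beta, encoded by Nr1d1 and Nr1d2, which repress Arntl and Npas2 through REV-ERB/ROR elements and compete there with the activating ROR receptors. DBP and TEF, bZIP proteins of the PAR family, are outputs of the E-box arm and act on D-box elements, and CIART (also called CHRONO) is a further repressor of ARNTL. Transcripts of the E-box arm and of Arntl therefore peak at different times of day in most tissues, the cerebral cortex included, and Per1 and Per2 can in addition be induced by neuronal activity and hormones.

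Levels below are signals as multiples of the array's 75th percentile, and changes are differences of their log2 values. The 75th percentiles of the 4 arrays lay between 1780 and 1929 intensity units, 77.6% to 80.2% of the spots were well above background, and no spot was saturated. All arrays came from 1 slide, and position on the slide cannot be told apart from group. Glo1 was lower on the heterozygous than on the wild-type arrays, with changes of -0.56 on starch and -0.86 on sucrose, the direction of the genotype labels. With 1 array a group, the only measured error is that of printing and reading a spot, taken from probes printed 10 times. From the SD of a probe's spots within an array, the SD of a difference between 2 single spots was computed as 0.068 among the brightest quartile of probes (291 repeated probes), 0.12 in the next (5 probes) and 0.13 in the one below (3 probes). It covers neither the labelling and hybridisation nor the spread between mice. No change in level between the arrays has a p-value, apart from the additive fit given further on.

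Between diets, Ciart and Nr1d1 were higher and Per2 was lower on sucrose by 1.3-fold or more in both genotypes, a log2 change of at least 0.38 in size. For Per2 in wild-type mice (-0.38) this was at the edge: it was -0.377 with loess scaling, -0.36 with normexp background correction and -0.35 with the mean over its probes, all short of the threshold, and with that mean it was -0.36 in heterozygous mice. With the mean over its probes Ciart was short of it in heterozygous mice (0.23). Of all 20655 genes, 3.93% passed that size in the same direction in both genotypes. In wild-type mice Dbp and Per3 were also higher and Arntl lower past that size, and the difference between the genotypes was not tested. Arntl (-0.3786) was past the threshold (0.3785) only barely, and short of it with median scaling (-0.375), normexp (-0.34) and the mean over its probes (-0.21), with which Per3 was short too (0.29). Per1, Nr1d2 and Tef stayed within 1.3-fold in each diet and genotype comparison by their brightest probe. In wild-type mice 4 of the 10 genes were at least 1.3-fold higher on sucrose, against 6.51% of all 20655 genes. There 2 were at least 1.3-fold lower, against 7.74%. The 10 genes were chosen with earlier results of these data known, so these and later counts do not test the set. In heterozygous mice 2 were higher (7.37% of all genes) and 2 lower (4.94%), Per2 and Npas2. Npas2 (-0.38) had the other sign in wild-type mice (0.22) and was short of the threshold with normexp (-0.27). The median change over the 10 genes was 0.21 in wild-type mice and 0.0093 in heterozygous mice, where the medians over all genes were -0.00072 and 0.00035. Of the 10, Ciart was at least 2-fold higher, in wild-type mice, as were 0.484% of all genes, and no other change of these genes reached that size. With normexp (0.98) and with the mean over its probes (0.75) Ciart was short of 2-fold. In bulk RNA, fewer cells of a type and less RNA per cell cannot be told apart. The plot of signals by array shows the 10 genes with all their probes.

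**Figure D1:**
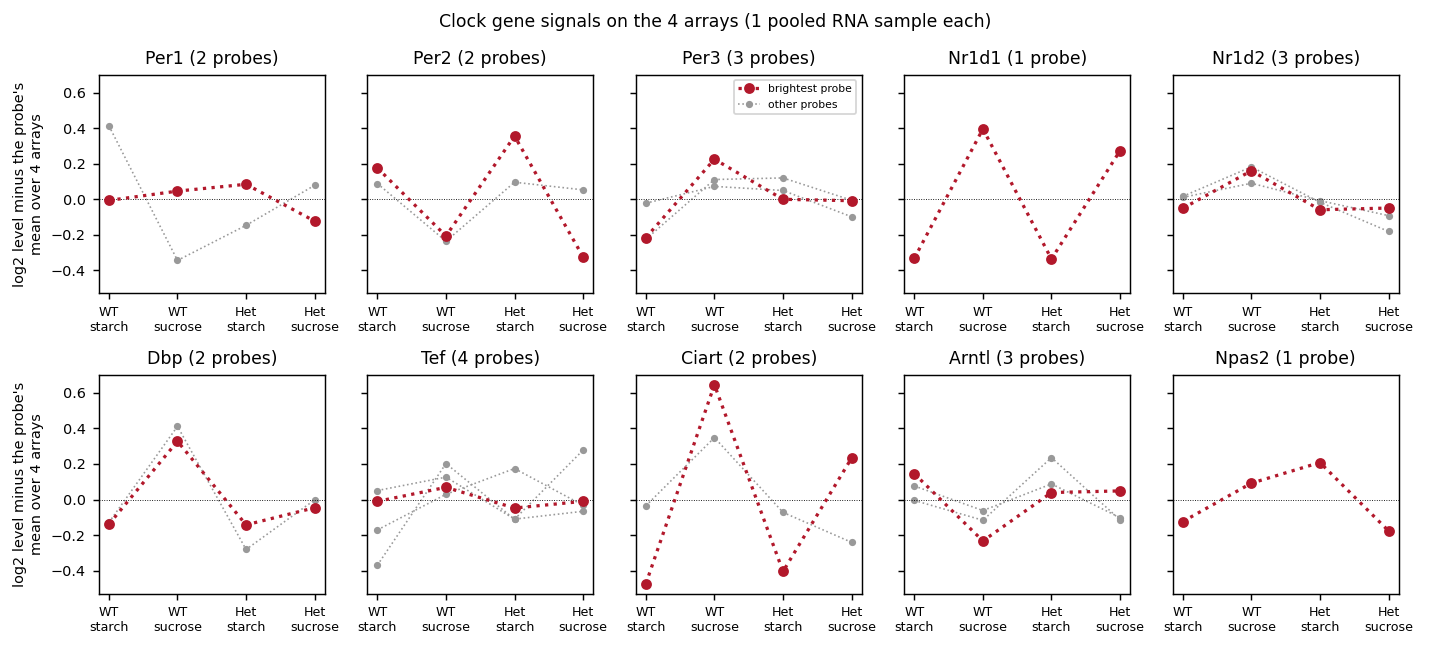
Log2 level of each probe minus its mean over the 4 arrays (y axis) on each array (x axis; WT, wild-type; Het, Glo1 heterozygous), with the brightest probe of each gene in red and other probes in grey; dotted lines only join points of a probe. Ciart spans 1.12 and Nr1d1 0.73 log2 units, both highest on the wild-type sucrose array, Per2 runs the other way with 0.68, and the brightest Tef probe spans 0.12.

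Of the activators, Arntl was measured by 3 probes on chromosome 7 (coordinates of probes here and below are those of the files, build mm9). Its brightest probe (A_52_P267651, 120456978 to 120457037) read 1.32 on the wild-type starch, 1.01 on the wild-type sucrose, 1.22 on the heterozygous starch and 1.23 on the heterozygous sucrose array. The wild-type sucrose array was thus low and the other 3 lay close together. The diet change was -0.38 in wild-type mice, at the edge of the 1.3-fold threshold, and 0.0091 in heterozygous mice, and 0.28 separated the genotypes on sucrose. The other 2 probes, both dimmer, gave diet changes of -0.11 and -0.14 in wild-type and of -0.35 and -0.19 in heterozygous mice. All 3 probes were lower on sucrose in wild-type mice, but in heterozygous mice the brightest probe differed in sign from the other 2. Npas2, which in the forebrain can stand in for Clock, had 1 probe (A_52_P534749, chromosome 1, 39418941 to 39419000) in the second dimmest quartile of signals. It read 0.077 and 0.090 on the wild-type arrays (starch, sucrose) and 0.097 and 0.075 on the heterozygous arrays. Its diet change was 0.22 in wild-type mice and -0.38 in heterozygous ones, and its interaction, the diet change in heterozygous minus that in wild-type mice, was -0.60, the lowest of the 10 genes. Steps between neighbouring arrays in the order of its levels did not pass 2 SD of the spot error.

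Arntl is the member whose RefSeq promoter window (250 bases before to 50 after a transcript start, GRCm38.p6) holds a match to the REV-ERB/ROR element, the site through which NR1D1 and NR1D2 act. The match is on the gene's own strand and begins at base 27 after the second of its annotated starts. It is shown with its neighbouring bases, 30 in all from chr7:113207527-113207556 on the plus strand, with the element in capitals.
Arntl site: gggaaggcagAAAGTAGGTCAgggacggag
Matches to this element were found in 0.384% of the 32851 promoter windows in the RefSeq table.

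The Period genes encode the repressors that accumulate and then shut down the ARNTL heterodimer. Per1 had a bright probe (A_55_P1970033, chromosome 11, 68923364 to 68923423) that read 9.36 on the wild-type starch, 9.70 on the wild-type sucrose, 9.96 on the heterozygous starch and 8.63 on the heterozygous sucrose array. These levels span 0.21, the second smallest range of the 10 genes, with diet changes of 0.052 and -0.21. The second Per1 probe (A_55_P2019327), annotated to a cDNA clone, read 0.010 to 0.016, in the dimmest quartile of signals, and moved the other way in each diet and genotype comparison. Per2 was measured by a bright probe (A_55_P2737144, chromosome 1, 93312595 to 93312654) and a dim one (A_52_P536869). The bright probe read 3.38 on the wild-type starch, 2.59 on the wild-type sucrose, 3.82 on the heterozygous starch and 2.38 on the heterozygous sucrose array. Both starch arrays lay above both sucrose arrays. The diet change was -0.38 in wild-type mice and -0.68 in heterozygous ones, which is 76.7% and 62.4% of the starch signal. The dim Per2 probe gave -0.32 and -0.043. Across the 10 genes Per2 was the one whose starch arrays both exceeded its sucrose arrays, an order seen in 20.1% of all genes.

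Per3 had 3 probes on chromosome 4. On the wild-type arrays the brightest (A_66_P137063, 150385608 to 150385667) read 0.519 for starch and 0.704 for sucrose, and on the heterozygous arrays 0.602 and 0.599. It was 0.44 higher on sucrose in wild-type mice and differed by -0.0079 in heterozygous mice. The wild-type starch array was low and the wild-type sucrose array high, with both heterozygous arrays in between. The next probe (A_55_P2752088, 150378473 to 150378532) gave 0.095 and -0.15, and the third gave 0.34 and -0.13, so the 3 probes had one sign in each genotype but the 1.3-fold change rested on 1 of them.

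Promoter stretches of Per1 and Per3 are shown because they differ in the clock element they hold. Each is the 250 bases before a RefSeq start, with E-boxes (CACGTG, the same on both strands) and D-boxes (TTATGTAA, searched on both strands and found here on the gene's strand) in capitals. That of Per1 is chr11:69098699-69098948 on the plus strand, before the first of its annotated starts, and that of Per3 is chr4:151044666-151044915 on the minus strand.
Per1 promoter: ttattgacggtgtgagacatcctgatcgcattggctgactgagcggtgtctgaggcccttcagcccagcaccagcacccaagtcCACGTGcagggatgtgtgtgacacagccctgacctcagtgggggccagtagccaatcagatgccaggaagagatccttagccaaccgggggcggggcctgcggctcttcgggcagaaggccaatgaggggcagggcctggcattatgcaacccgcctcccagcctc
Per3 promoter: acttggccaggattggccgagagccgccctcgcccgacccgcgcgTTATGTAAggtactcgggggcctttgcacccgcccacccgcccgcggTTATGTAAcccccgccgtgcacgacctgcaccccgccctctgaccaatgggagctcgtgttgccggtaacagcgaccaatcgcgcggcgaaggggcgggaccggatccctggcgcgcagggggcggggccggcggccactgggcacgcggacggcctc
The E-box of Per1 begins 166 bases before the start, and the D-boxes of Per3 begin 205 and 158 bases before it. Of all 32851 windows, 7.15% held an E-box and 0.938% a D-box, and 7 windows (0.0213%) held 2 or more D-boxes. A D-box variant (TTACGTAA, the same on both strands; 0.119% of all windows) and the cyclic AMP response element (TGACGTCA, the same on both strands; 1.79%) had no match in the 12 windows of the 9 genes found in the table. No matched elements shared bases.

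Ciart showed the largest diet change of the 10 genes. Its brightest probe (A_52_P63343, chromosome 3, 95682433 to 95682492) read 0.272 on the wild-type starch, 0.590 on the wild-type sucrose, 0.285 on the heterozygous starch and 0.443 on the heterozygous sucrose array. Both sucrose arrays lay above both starch arrays, and the starch arrays lay 0.069 apart, under the SD of the spot error. The diet change was 1.12 in wild-type mice, or 217% of the starch signal, and 0.64 in heterozygous mice, or 156%. On sucrose the heterozygous array was lower by 0.41 (a change of -0.41). The second probe (A_66_P104483, 95685193 to 95685252), which lies nearer the 5′ end of the transcript, read 0.100 and 0.130 in wild-type mice and 0.097 and 0.087 in heterozygous ones. It was 0.38 higher on sucrose in wild-type mice and differed by -0.17 in heterozygous mice, where it differs in sign from the brightest probe. Both probes put the wild-type sucrose array highest, and both were lower on the heterozygous than on the wild-type sucrose array (-0.41 and -0.59). The diet change in heterozygous mice therefore rests on 1 probe.

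The promoter of Ciart is shown because it holds 3 E-boxes, in capitals, a number reached by 29 of the 32851 windows (0.0883%). The 250 bases before its start are chr3:95882229-95882478 on the minus strand.
Ciart promoter: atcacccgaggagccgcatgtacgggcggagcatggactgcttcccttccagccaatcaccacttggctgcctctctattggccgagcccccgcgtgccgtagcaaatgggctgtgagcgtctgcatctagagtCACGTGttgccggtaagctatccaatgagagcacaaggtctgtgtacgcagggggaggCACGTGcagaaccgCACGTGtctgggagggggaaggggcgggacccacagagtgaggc
The E-boxes begin 116, 58 and 44 bases before the start. The plot of motif positions sets them beside those of the other genes.

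**Figure D2:**
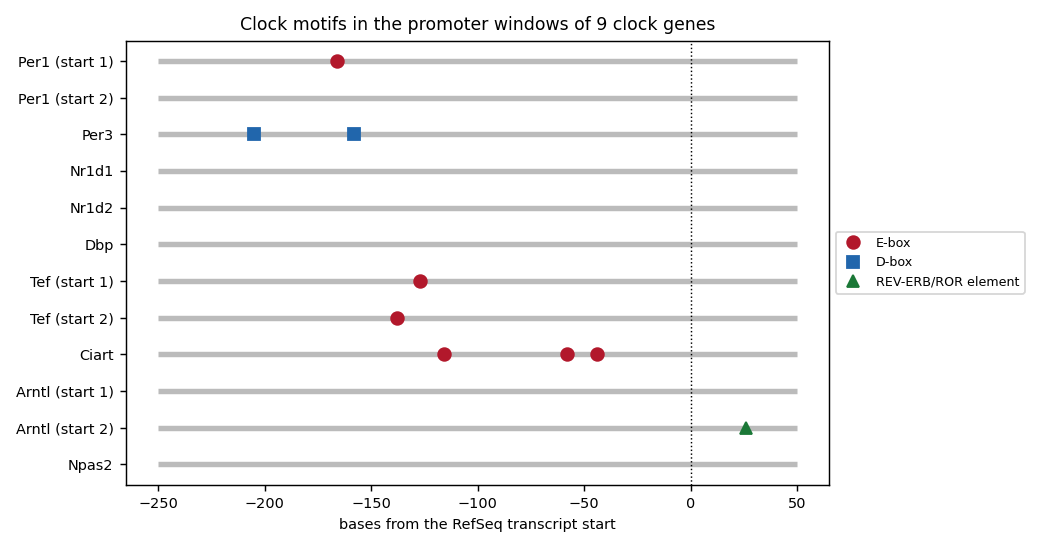
Positions of E-boxes (red circles), D-boxes (blue squares) and the REV-ERB/ROR element (green triangle) by their first base, in bases from the RefSeq transcript start (x axis), in the 12 promoter windows (grey bars, 250 bases before to 50 after a start) of 9 genes. Ciart holds 3 E-boxes, Per1 and both Tef windows 1 each, Per3 holds 2 D-boxes and Arntl the REV-ERB/ROR element.

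The REV-ERB receptors differed from each other. Nr1d1 had 1 probe (A_51_P223776, chromosome 11, spanning 98630526 to 98631028), which read 0.409 on the wild-type starch, 0.678 on the wild-type sucrose, 0.408 on the heterozygous starch and 0.623 on the heterozygous sucrose array. Both sucrose arrays lay above both starch arrays, with a step of 0.61 between the lower sucrose and the higher starch array, and within each diet the genotypes differed by less than 2 SD of the spot error. The diet changes were 0.73 in wild-type mice and 0.61 in heterozygous ones. These were the closest pair of diet changes among the 3 genes past 1.3-fold in both genotypes, with an interaction of -0.12. Nr1d2 was measured by 3 probes on chromosome 14, all in the brightest quartile. The brightest (A_55_P2911007, 19036859 to 19036918) read 3.53 and 4.08 in wild-type mice and 3.51 and 3.53 in heterozygous ones on starch and sucrose. The wild-type sucrose array was high and the other 3 arrays lay close together. The 3 probes gave 0.079 to 0.21 for diet in wild-type mice and -0.16 to 0.0096 in heterozygous mice, and all 3 were lower in heterozygous than in wild-type mice on sucrose, by changes of -0.36 to -0.18.

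Of the PAR bZIP outputs, Dbp was measured by 2 probes on chromosome 7. The brightest (A_55_P2032079, 52965461 to 52965520) read 18.4 on the wild-type starch, 25.5 on the wild-type sucrose, 18.4 on the heterozygous starch and 19.7 on the heterozygous sucrose array. The wild-type sucrose array stood above the other 3. The second probe (A_51_P180492, 52965265 to 52965324) read 14.1, 20.5, 12.7 and 15.4 in the same order. Diet changes were 0.47 and 0.54 in wild-type mice and 0.096 and 0.28 in heterozygous ones, and on sucrose the heterozygous array was lower with both probes (-0.37 and -0.41). Tef had 4 probes on chromosome 15. The brightest (A_55_P1979893, 81657221 to 81657280) read 34.3 and 36.3 in wild-type mice and 33.4 and 34.3 in heterozygous ones, a range of 0.12, the smallest of the 10 genes. A second probe (A_52_P485573, 81656928 to 81656987) gave diet changes of 0.075 and 0.044, beside 0.079 and 0.038 for the brightest. A probe annotated to another transcript of the gene (A_55_P2912692, 81647233 to 81647292) read 0.669, 0.994, 0.800 and 1.05, with diet changes of 0.57 and 0.39, and the fourth (A_52_P173309) gave 0.20 and -0.21. The Tef probes thus differed among themselves.

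Tef is the other member with E-boxes, 1 in each of its 2 promoter windows. The 130 bases around them are shown with the E-box in capitals, from chr15:81802486-81802615 for the first start and from chr15:81811216-81811345 for the second, both on the plus strand.
Tef start 1: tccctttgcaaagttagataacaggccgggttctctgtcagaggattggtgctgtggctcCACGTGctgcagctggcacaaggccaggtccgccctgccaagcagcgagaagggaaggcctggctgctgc
Tef start 2: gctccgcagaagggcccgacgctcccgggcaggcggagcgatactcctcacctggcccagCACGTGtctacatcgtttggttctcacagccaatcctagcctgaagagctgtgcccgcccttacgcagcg
The elements begin 127 and 138 bases before their starts. Nr1d1, Nr1d2, Dbp and Npas2 had none of these letters in their windows. Per2 is named only.

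The order of the 4 arrays is given by each gene's brightest probe. Of the 10 genes, 6 (Per3, Nr1d1, Nr1d2, Dbp, Tef and Ciart) were highest on the wild-type sucrose array, as were 26.6% of all genes. Both sucrose arrays lay above both starch arrays for 5 of them (Nr1d1, Nr1d2, Dbp, Tef and Ciart; 22.0% of all genes), by steps between the nearest arrays of 0.64 for Ciart, 0.61 for Nr1d1 and 0.093 for Dbp. For Nr1d2 and Tef the step was 0.0014 and 0.000073, and its sign turned under other scalings (heterozygous sucrose minus wild-type starch from -0.040 to 0.046 and from -0.041 to 0.16). Per1, Per2 and Npas2 were highest on the heterozygous starch array (20.2%) and Arntl on the wild-type starch array (31.4%). None was highest on the heterozygous sucrose array (21.7%), and in none did both heterozygous arrays lie above (13.8%) or below (20.9%) both wild-type arrays. Other probes could give another order. The Tef probe A_55_P2912692 was highest on the heterozygous sucrose array, and the second Ciart probe was lowest there. Among all 23 probes, 7 were at least 1.3-fold higher and 3 lower on sucrose in wild-type mice, where 7.72% and 7.84% of all probes were. In heterozygous mice 3 were higher (6.53%) and 2 lower (5.16%). Of the 8 genes with more than 1 probe, 7 had the same sign over all their probes for diet in wild-type mice. In heterozygous mice 3 did. The share over all genes with more than 1 probe was not counted.

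**Figure D3:**
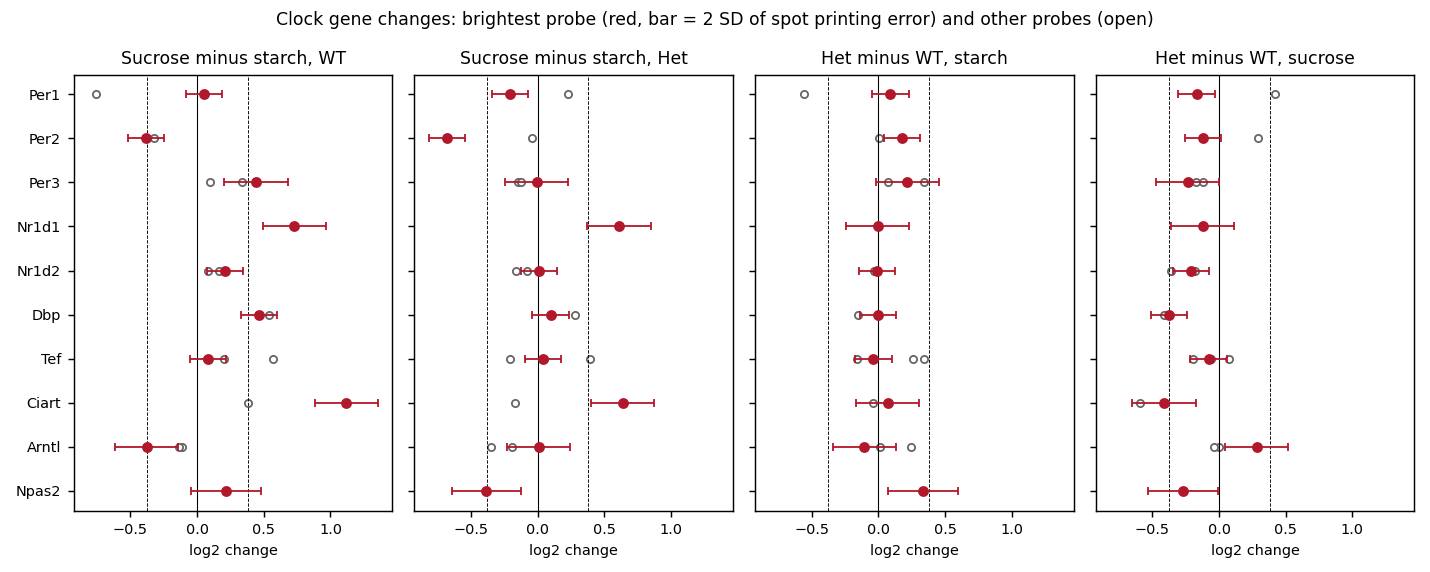
Log2 change (x axis) of each clock gene (y axis) for diet in each genotype and for genotype on each diet, with the brightest probe in red, its bar 2 SD of the spot error, and other probes as open circles; dashed lines mark 1.3-fold. Nr1d1 lies at 0.73 and 0.61 for diet and at -0.0038 and -0.12 for genotype, and the probes of Ciart, Tef and Per1 lie apart from each other in several panels.

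Genotype changes past 1.3-fold were fewer than diet changes in these genes. On starch none of the 10 was at least 1.3-fold higher (4.25% of all genes) or lower (6.72%) in heterozygous mice, and their changes lay between -0.11 (Arntl) and 0.33 (Npas2), with a median of 0.033. On sucrose 1 gene, Ciart (-0.41), was at least 1.3-fold lower in heterozygous mice, against 3.94% of all genes, and none was higher (6.33%). There 9 of the 10 genes lay below 0, with Arntl (0.28) the exception, and the median was -0.19. Of all genes 45.1% lay above 0, and their median was -0.019. In this comparison 34.8% of genes in the brightest quartile, that of Per1, Per2, Nr1d2, Dbp and Tef, lay above 0, and 50.9% in the next. Over the scalings tried, Tef there ranged from -0.12 to 0.0098, and with the mean over probes Per1 (0.13) and Per2 (0.086) also lay above 0. With normexp Ciart (-0.36) was short of 1.3-fold there. The comparison shares the wild-type sucrose array with diet in wild-type mice, so an array that reads high or low enters both with opposite sign. Set against the wild-type starch array, the heterozygous sucrose array differs in diet and genotype, and on it Ciart (0.71) and Nr1d1 (0.61) were higher past 1.3-fold (8.19% of all genes) and Per2 (-0.50) was lower (8.54%). The second Ciart probe gave -0.21 and the dim Per2 probe -0.035 there, and with the mean over probes both genes were short of 1.3-fold (0.25 and -0.27). The interaction was at or below -0.38 for 3 genes, Npas2 (-0.60), Ciart (-0.48) and Per3 (-0.45), where 6.48% of all genes were, and above 0.38 for Arntl (0.39; 11.2%). The other 2 Arntl probes gave interactions of the other sign (-0.24 and -0.051), and the call was lost with median scaling, normexp and the mean over probes (0.033).

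The additive limma fit of diet and genotype, which takes the interaction as its error with 1 residual degree of freedom, called none of the 42094 probes at an adjusted p of 0.05 for diet or genotype, with 3704 and 2704 probes at an unadjusted p under 0.05. With another background correction (normexp) it called 28 probes for diet and with a trended prior 1, none of them a clock gene probe. In data simulated with 1 residual SD for all probes the fit recovered planted changes, but with residual SDs resampled from these arrays it did not, so an absence of calls does not show an absence of differences. For diet 5 of the 23 clock probes had an unadjusted limma p under 0.05, as did 8.80% of all probes. These were Nr1d1 (mean diet change 0.67, 95% interval 0.38 to 0.95), the brightest probe of Ciart (0.88, 0.42 to 1.34), the probe of the other Tef transcript (0.48, 0.18 to 0.79), the bright Per2 probe (-0.53, -0.89 to -0.18) and the second Dbp probe (0.41, 0.073 to 0.75). The limma adjusted p was 0.532 for the first 4 and 0.541 for Dbp, and each of the 5 had the same sign in both genotypes. For genotype none of the 23 had an unadjusted limma p under 0.05 (6.42% of all probes), and the smallest adjusted p was 0.733.

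The other clock genes were taken from a list of 18, all measured: they include Clock, Arntl2, the Cryptochromes, Nfil3, Hlf, Bhlhe40, Bhlhe41 and kinases and F-box proteins that act on clock proteins. In wild-type mice 1 was at least 1.3-fold higher (6.51% of all genes) and 1 lower (7.74%) on sucrose. In heterozygous mice 1 was higher (7.37%) and 2 were lower (4.94%). Their medians for diet were 0.065 and -0.053. Nfil3, a bZIP repressor that competes with DBP and TEF for D-boxes, read 1.15 and 0.813 in wild-type mice and 1.39 and 1.02 in heterozygous ones on starch and sucrose. Both starch arrays lay above both sucrose arrays, its diet changes were -0.49 and -0.45, and its second probe gave -0.57 and -0.44. Bhlhe40, an E-box repressor that is also induced by activity, differed by -0.29 and -0.41, and its paralogue Bhlhe41 by 0.45 and 0.13, or 0.40 and 0.31 with its second probe. Bhlhe41 also passed 1.3-fold for genotype on starch, where it was higher in heterozygous mice (0.38, and 0.017 with its second probe). Cry1, at levels of 0.066 to 0.097, passed 1.3-fold for genotype on starch (-0.39), with diet changes of -0.38 and -0.17. That rests on 1 of its 2 probes: the other (A_55_P2880103) gave 0.015 for genotype on starch and -0.10 and -0.47 for diet. The probes of Cry2 disagreed in size, with 0.22 for the brightest and 0.71 and 0.76 for the other 2 in wild-type mice. The brightest Clock probe differed by 0.064 and 0.054, and the next (A_52_P334670) by -0.17 and -0.055.

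Of 9 measured genes known as clock outputs, 2 were at least 1.3-fold higher (6.51% of all genes) and none lower (7.74%) on sucrose in wild-type mice, and 1 was higher (7.37%) and 1 lower (4.94%) in heterozygous mice. Usp2, a ubiquitin protease driven by the clock in many tissues, read 3.77 and 6.18 in wild-type mice and 4.41 and 5.28 in heterozygous ones, with diet changes of 0.71 and 0.26, and 0.49 and 0.48 with its second probe. Pdp1, a pyruvate dehydrogenase phosphatase, differed by -0.33 and -0.54, and by -0.39 and -0.50 with its second probe. Gys2, the liver glycogen synthase, differed by 1.11 and 1.16 but at levels of 0.010 to 0.025, in the dimmest quartile. The median of the 9 was -0.030 in wild-type mice and -0.059 in heterozygous ones.

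**Figure D4:**
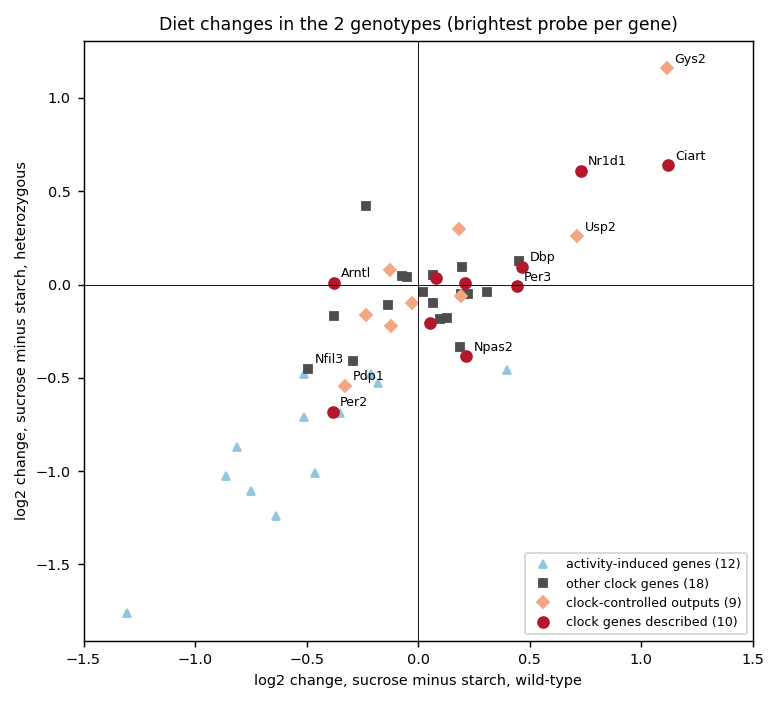
Log2 diet change in wild-type (x axis) against that in heterozygous mice (y axis) for the brightest probe of each of the 10 clock genes (red circles), 18 other clock genes (grey squares), 9 clock outputs (orange diamonds) and 12 activity-induced genes (blue triangles). Ciart, Nr1d1, Usp2 and Gys2 lie at upper right, Per2, Nfil3 and Pdp1 at lower left beside the activity-induced genes.

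Lists of other genes moved with the same arrays, and their part in the clock gene values was not tested. Activity-induced genes, which share cyclic AMP and calcium signalling with Per1 and Per2, were lower on sucrose: 11 of 12 lay below 0 in wild-type mice (median -0.51, 8 of them past 1.3-fold and 1 gene higher past it) and 12 of 12 in heterozygous mice (median -0.79, 12 past 1.3-fold). Of all genes, 7.74% and 4.94% were that much lower. Their summed level was 73.4 and 52.1 on the wild-type and 84.1 and 48.1 on the heterozygous arrays (starch, sucrose). The bright Per2 probe had the same order of arrays, but the bright Per1 probe and the dim Per2 probe did not. The bright Per1 probe read higher on the wild-type sucrose than on the wild-type starch array. The dim Per2 probe was lowest on the wild-type sucrose array. The share of all genes with the order of the summed level was not counted. Of 8 glucocorticoid-induced genes 3 were past 1.3-fold lower in wild-type mice (7.74% of all genes) and 2 in heterozygous mice (4.94%), with medians of -0.29 and -0.19 and a summed level of 28.2, 26.1, 26.2 and 24.6 in the order wild-type starch, wild-type sucrose, heterozygous starch and heterozygous sucrose. That order also holds for the sums that follow.

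The markers of cortical excitatory neurons (8 of 8 measured) summed to 62.4, 85.6, 78.6 and 80.9, those of interneurons (6 of 6) to 92.7, 94.8, 94.5 and 82.8 and those of astrocytes (6 of 6) to 129.6, 116.9, 119.1 and 109.8, so markers of neurons and glia of the labelled tissue were measured on each array. In the excitatory list Camk2a gave the largest part of the sum (37.0, 53.7, 50.6 and 54.0), and while 8 of 8 markers were higher on sucrose in wild-type mice, 5 of 8 were lower in heterozygous ones (median -0.15). Striatal markers (7 measured) summed to 26.0, 41.4, 38.4 and 22.3, and 7 of 7 were higher on sucrose in wild-type mice and lower in heterozygous ones. Choroid plexus markers (7 of 7) summed to 0.855, 2.06, 0.807 and 68.9, led by Ttr at 58.7 on the heterozygous sucrose array. Blood markers (6 of 6) summed to 164, 76.4, 138 and 87.5, higher on both starch arrays, and endothelial markers (5 of 5) to 31.0, 22.8, 27.7 and 22.7. Oligodendrocyte markers (5 of 5) lay between 72.7 and 81.2, microglial markers (5 of 5) between 27.2 and 29.4, and melanocyte markers (5 of 5) between 0.24 on the wild-type sucrose and 1.45 on the heterozygous starch array. Markers of the suprachiasmatic nucleus, the seat of the central clock, and of the wider hypothalamus summed to 1.63, 1.61, 1.52 and 1.45. Of these 9 were measured and Six6 was not well above background, and Avp read 0.016 to 0.037. Rgs16 gave the largest part of that sum, while Oxt read 0.319, 0.070, 0.080 and 0.155 and Six3 0.017, 0.113, 0.083 and 0.037. Of 4 pituitary markers 2 were measured: Pomc read 0.394 to 0.455, and Prl 0.010, 0.030, 0.106 and 0.011.

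**Figure D5:**
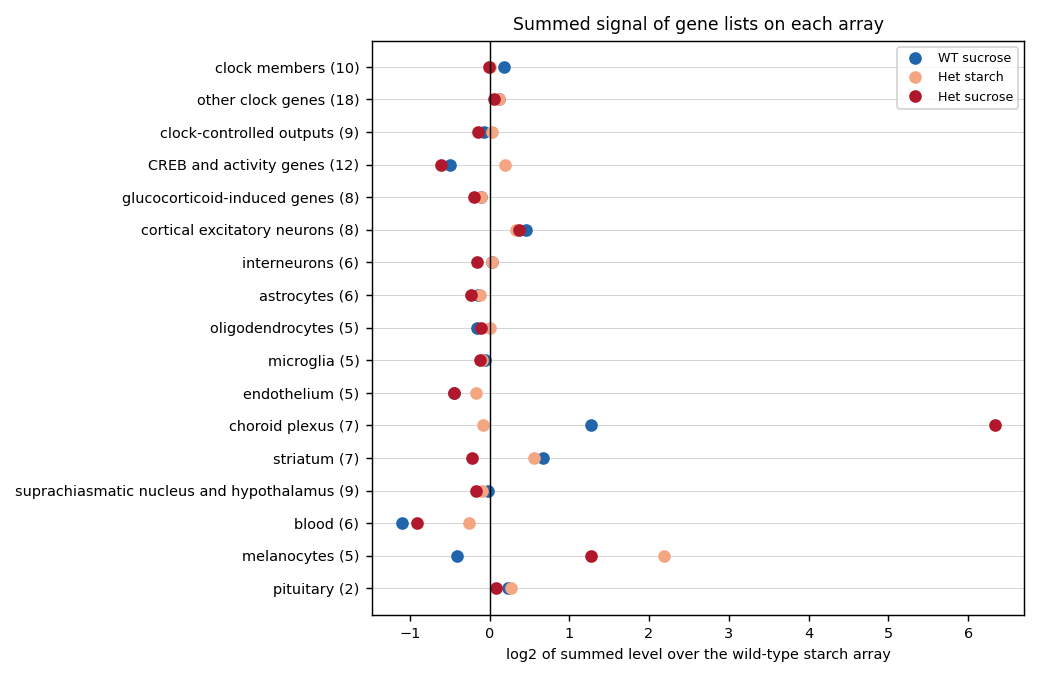
Log2 of the summed level of each gene list (y axis, number of measured genes in brackets) on 3 arrays over that on the wild-type starch array (x axis). The 10 clock genes sum to 71.6, 81.2, 71.8 and 71.5 in the order of arrays used above. The largest parts of that sum are Tef (34.3, 36.3, 33.4 and 34.3) and Dbp (18.4, 25.5, 18.4 and 19.7). Activity-induced and blood genes are low on both sucrose arrays, and choroid plexus genes stand apart on the heterozygous sucrose array.

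The genes whose profile over the 4 arrays was most like the mean profile of the 8 members other than Arntl and Npas2 were Pcdhgc5, Dedd2, Vmo1, Man2c1os and Sgtb, with root mean square differences of 0.0044 to 0.011 on the log2 scale. That mean profile spans 0.34, from the wild-type starch to the wild-type sucrose array. Of the 8 members Nr1d2 (0.052), Per3 (0.055) and Dbp (0.073) lay closest to it and Per2 (0.37) farthest. Closest to Ciart alone were Gm40932 (0.068), Syce1 (0.080), Gm36371 (0.084), Gm30810 (0.087) and Il1rl1 (0.088), and among the members Nr1d1 (0.149). The closeness is a description of these 4 arrays.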

How the data were processed

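RNA pools of 4 groups were labelled with Cy3 from 200 ng of total RNA and hybridised to 1 Agilent array each. The arrays were read with Agilent Feature Extraction 11.5.1.1, per the submitters' processing notes and the file headers, and probe coordinates are mm9 per the file headers. The deposited scanner files hold the background-corrected intensity of each spot. The authors' deposited value table was checked against them: its values are the ratio of that intensity to the array's 75th percentile, on a linear scale, uncentred, with column medians of 0.0755 to 0.0777.

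From the deposited intensities, control spots and outlier spots were left out, spots of a probe were averaged, and log2 intensity minus the array's log2 75th percentile was taken. Each gene's value is that of its brightest probe among those well above background on all 4 arrays, and the other probes of the 10 members are given beside it. Python 3.11.15 and pandas 2.3.3 were used, with R 4.3.3 and limma 3.58.1 for the additive fit (Benjamini-Hochberg adjustment over 42094 probes), whose script was tested on simulated data. With 1 array a group, p-values exist only for that fit, and the number of arrays limits the precision.

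The genes named were all 10 members, Glo1, and of the other clock genes those past 1.3-fold between any pair of groups compared, except 1 gene that is not reported here. Usp2, Pdp1, Gys2, Clock, Cry2 and the single genes of the marker lists were named after their values were seen. For likeness, the 5 genes with the smallest root mean square difference over the 4 arrays were named. The members and all lists were chosen with earlier results of these data known. Promoter sequences are RefSeq, GRCm38.p6, matched by symbol. Alternatives covered scaling, background correction, filters, probe choice and outlier spots.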

Additional observations from a re-analysis of the deposited data

Results flagged for a closer look

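For Per1, Per2, Per3 and Npas2 the change with 1 factor had opposite signs at the 2 levels of the other. Both sides were larger than 1 SD of the spot error, and the share of all genes that pass this rule was not counted. The differences were not tested, since each group is 1 array. Per1 differed between genotypes by 0.091 on starch and -0.17 on sucrose (interaction -0.26), but its dim probe went the other way, with an interaction of 0.98, and the mean over its probes gave 0.36. Per2 differed between genotypes by 0.18 on starch and -0.12 on sucrose (interaction -0.30), but its dim probe gave 0.0075 and 0.29 (interaction 0.28), and the mean over its probes gave an interaction of -0.0078. Per3 differed between genotypes by 0.22 on starch and -0.23 on sucrose (interaction -0.45), and its other 2 probes had the same pair of signs. The diet change of Npas2 was 0.22 in wild-type mice and -0.38 in heterozygous ones, and it moved with genotype by 0.33 on starch and -0.27 on sucrose (interaction -0.60), on 1 probe.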

How the results depend on the processing

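No change of a clock gene past 1.3-fold turned its sign under the alternatives run. The median over the 10 genes for both factors, 0.00073, was 0.093 with loess and 0.092 with quantile scaling. Smaller changes did turn: that of Per1 with diet in wild-type mice, 0.052, was -0.35 with the mean over probes, and that of Tef with genotype on starch ran from -0.051 to 0.062. Counts of clock genes past 1.3-fold moved as follows, and the cause was not tested. Higher on sucrose in wild-type mice, 4 genes became 3 with the mean over probes. Lower there, 2 genes became 1 with median scaling, 1 with loess, 0 with normexp and 0 with the mean over probes. In heterozygous mice, 2 higher genes became 1 with the mean over probes, and 2 lower genes became 1 with normexp, 1 above the median signal (where Npas2 was left out) and 1 with the mean over probes. Lower in heterozygous mice on sucrose, 1 gene became 2 with median scaling, 0 with normexp and 2 with the mean over probes. For both factors, 2 higher genes became 1 and 1 lower gene became 0 with the mean over probes. For the interaction, 1 higher gene became 0 with median scaling, normexp and the mean over probes, and 3 lower genes became 4 with median scaling, quantile scaling and normexp and 2 above the median signal; Dbp, at -0.37, was -0.40, -0.40 and -0.39 under the first 3. The additive fit for diet called 0 probes, 28 with normexp and 1 with a trended prior, with no clock probe under any alternative. Ciart in wild-type mice ranged from 0.98 to 1.12 over the settings of its brightest probe and was 0.75 with the mean over probes. In heterozygous mice these were 0.56 to 0.64 and 0.23. Nr1d1 ranged from 0.69 to 0.73 and from 0.56 to 0.61. The slide as a block was not run, because there is 1 slide. No paired analysis was possible because each group has 1 array. No replicate could be left out. Dim probes limit what can be read of Npas2 and of the second or further probes of Per1, Per2, Per3, Ciart, Arntl and Tef.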
